A study of Mus musculus with 8 samples.

Results

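The genes described here encode 9 enzymes that break down amino acids, namely Tat, Hpd, Hgd, Fah, Tdo2, Hal, Sds, Mat1a and Gnmt. They were chosen by symbol and make up 9 of the 52195 genes measured. RNA was sequenced from whole liver, kidney, lung and small intestine of male C57BL/6 mice (C57BL/6J in the study's methods) aged 6 to 10 weeks, with no treatment in any group. Each tissue had 2 libraries, which came from separate mice, and the 4 tissues were taken from each mouse, so that libraries of different tissues share mice that the labels do not link. Whole tissue holds many cell types, so fewer cells of a type and less RNA per cell cannot be told apart.

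Amino acids that are not used for protein are taken apart by short chains of enzymes, many of which act in the hepatocyte. The tyrosine chain starts with the transfer of the amino group by Tat (tyrosine aminotransferase), continues through Hpd, which makes homogentisate, and Hgd, which opens its aromatic ring, and ends with Fah, which releases fumarate and acetoacetate. Tdo2 opens the ring of tryptophan, Hal removes ammonia from histidine, Sds turns serine into pyruvate, Mat1a makes S-adenosylmethionine from methionine, and Gnmt uses that product to methylate glycine. The proximal tubule of the kidney also handles amino acids, which it takes back from the filtrate.

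Promoter windows are shown for 2 genes that kidney shared with liver, Hgd and Fah, and for 2 that it did not, Tat and Hal. The sequences are from RefSeq on GRCm38.p6, where 7 of the 9 genes matched a window, and run 5′ to 3′ on the strand of the gene from 250 bases before the start to 50 bases after it. Capitals mark matches, on either strand, to the motifs searched. Hgd lies at chr16:37579903-37580202 on the plus strand, Fah at chr7:84605893-84606192 on the minus strand, Tat at chr8:109990186-109990485 on the plus strand and Hal at chr10:93488518-93488817 on the plus strand.
Hgd: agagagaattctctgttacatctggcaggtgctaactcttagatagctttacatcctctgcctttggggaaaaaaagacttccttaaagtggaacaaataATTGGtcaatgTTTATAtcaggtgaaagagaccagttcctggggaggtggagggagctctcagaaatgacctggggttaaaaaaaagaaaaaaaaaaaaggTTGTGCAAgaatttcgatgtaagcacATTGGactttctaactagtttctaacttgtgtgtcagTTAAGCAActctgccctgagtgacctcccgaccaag
Fah: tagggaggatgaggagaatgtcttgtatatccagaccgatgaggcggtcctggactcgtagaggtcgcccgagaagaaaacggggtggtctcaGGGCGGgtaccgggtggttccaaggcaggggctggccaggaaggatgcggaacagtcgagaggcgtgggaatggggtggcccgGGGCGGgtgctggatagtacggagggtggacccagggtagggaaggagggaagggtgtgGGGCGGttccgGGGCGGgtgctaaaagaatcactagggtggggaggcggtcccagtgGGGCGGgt
Tat: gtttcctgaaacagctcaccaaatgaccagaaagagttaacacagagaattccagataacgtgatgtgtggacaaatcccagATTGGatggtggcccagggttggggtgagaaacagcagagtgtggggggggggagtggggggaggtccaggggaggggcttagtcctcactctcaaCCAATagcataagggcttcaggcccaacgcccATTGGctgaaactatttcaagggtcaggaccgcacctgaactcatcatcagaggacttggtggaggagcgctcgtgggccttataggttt
Hal: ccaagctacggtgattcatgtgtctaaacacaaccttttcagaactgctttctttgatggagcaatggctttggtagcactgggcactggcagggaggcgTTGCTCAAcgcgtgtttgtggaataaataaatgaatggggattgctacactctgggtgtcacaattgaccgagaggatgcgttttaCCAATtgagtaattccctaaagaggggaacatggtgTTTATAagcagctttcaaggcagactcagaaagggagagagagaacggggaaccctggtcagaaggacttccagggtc

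The Fah window held 5 matches to the GC box (GGGCGG) and had a GC content of 64.3%, against a median of 52.7% over all windows. The Hgd window, at 41.0% GC, held 1 TATA box (TATAAA), 2 CCAAT boxes (CCAAT) and 2 matches to the C/EBP letters (TTGCNNAA). Tat held 3 CCAAT boxes, and Hal held 1 TATA box, 1 CCAAT box and 1 C/EBP match. Of 32851 windows of the same length, 35.7% held the GC box, 13.6% the TATA box, 37.4% the CCAAT box and 10.8% the C/EBP letters. The letters searched for HNF1 (GTTAAT), FOXA (TGTTTAC), HNF4 (CAAAGTCC) and the glucocorticoid receptor (TGTTCT) were in 7.10%, 3.65%, 1.42% and 19.0% of windows and in none of the 7 windows of these enzymes. The RefSeq starts of Fah and Tdo2 were 780 and 474 bases from their gene starts in the GENCODE annotation. Their windows may therefore not be the promoters used in these tissues.

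Between 9399646 and 22132986 reads fell on genes in each library. Levels are given as FPKM, in which fragments are scaled to transcript length and to the depth of the library, which allows levels of different genes to be compared. Of 28 marker genes of the tissues' main cell types, 27 were higher in both libraries of their own tissue than in any other library. Transcripts of the mitochondrial genome took between 22.8% of the summed FPKM in lung and 68.4% in kidney. The median over all 16328 genes tested was 0.27 lower in liver than in kidney on the log2 scale, and this shift changed with the scaling.

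The tyrosine enzymes were abundant in liver, and kidney held the late steps but not the first. Tat (chr8:109990437-109999803, GRCm38) had an FPKM of 895 and 701 in the liver libraries, 0.291 and 1.32 in kidney, 2.47 and 1.27 in lung, and 0.222 and 0.330 in small intestine. Both liver libraries stood far above the rest, while kidney overlapped lung and small intestine. Tat in kidney rested on 15 and 55 reads. Hpd (chr5:123171807-123182727), the second enzyme of the chain, was at 709 and 606 in liver, 15.5 and 10.5 in kidney, 1.06 and 1.21 in lung, and 3.01 and 2.53 in small intestine. Its 4 tissues did not overlap, and kidney was at 1.98% of the liver mean.

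Hgd (chr16:37580153-37632020), which opens the ring of homogentisate, was at 199.9 and 227 in liver, 115 and 119 in kidney, 0.783 and 0.338 in lung, and 0.163 and 0.304 in small intestine. Liver and kidney were both far above the other tissues, and the kidney mean was 55.0% of the liver mean. Fah (chr7:84585159-84606722) was at 197 and 190.2 in liver, 159 and 149 in kidney, 13.4 and 13.1 in lung, and 1.40 and 1.47 in small intestine. Fah was the most evenly spread of the 9 enzymes, with a kidney mean at 79.4% and a lung mean at 6.84% of liver, and its liver mean made up 53.5% of the sum over the 4 tissue means. The liver libraries of both genes still lay above the kidney libraries.

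**Figure D1:**
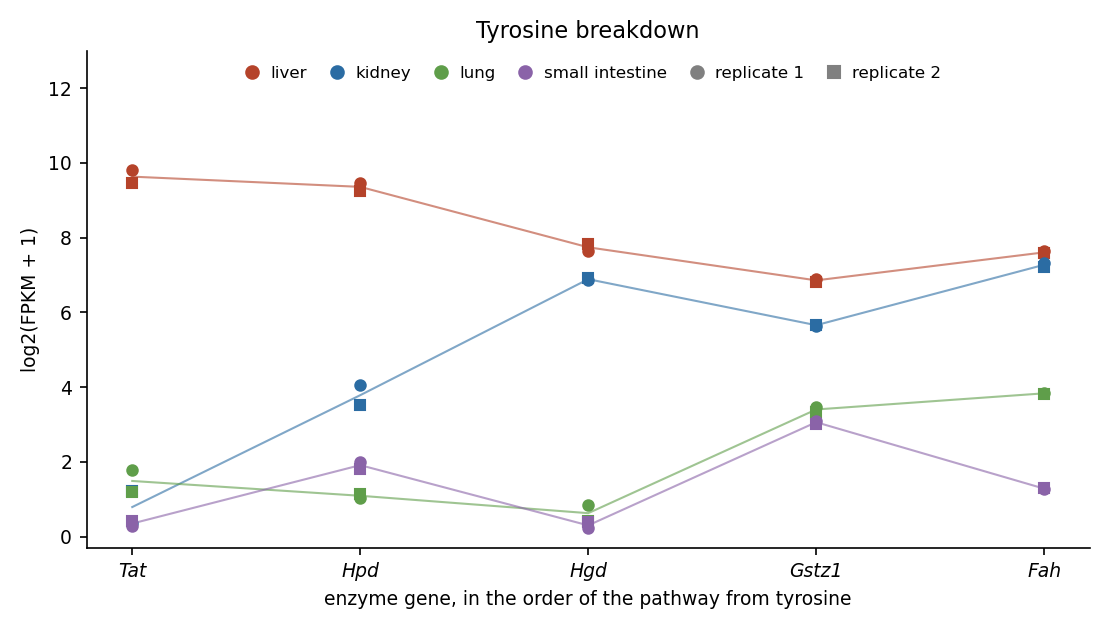
Levels of 5 enzymes of tyrosine breakdown, in pathway order, as log2(FPKM + 1) in each library, with circles and squares for replicates 1 and 2 and lines through the tissue means. The kidney libraries lie among those of lung and small intestine at Tat and close to liver at Hgd and Fah.

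Tdo2 (chr3:81957090-81976202), the hepatic enzyme that commits tryptophan to the kynurenine route, was at 474 and 461 in liver, 0.204 and 0.655 in kidney, 1.82 and 1.14 in lung, and 0.248 and 0.205 in small intestine. The lung libraries were above those of kidney and small intestine, which overlapped. Hal (chr10:93488768-93519304), the first enzyme of histidine breakdown, was at 56.4 and 66.0 in liver. Outside liver Hal did not exceed 0.189 in any library, and in kidney it rested on 2 and 5 reads.

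Sds (chr5:120476526-120483932) had the lowest liver level of the 9 enzymes, at 32.2 and 36.9. It had 0 and 4 reads in kidney, 5 and 5 in lung, and 0 in both libraries of small intestine. Against the FPKM that 3 reads would give in the first small intestine library, the liver mean was at least 183-fold higher. Exons of the antisense genes Gm15690 and Plbd2 overlap 29.6% of the exon bases of Sds, and whether the counting used strand is not given in the sources used here, so reads from either strand cannot be told apart there.

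The methionine enzymes were abundant in liver and low elsewhere. Mat1a (chr14:41105035-41124412), the liver form of S-adenosylmethionine synthetase, was at 642 and 560.1 in liver, 0.269 and 0.666 in kidney, 5.23 and 3.16 in lung, and 0.246 and 0.127 in small intestine. No tissues overlapped, and lung came second. Gnmt (chr17:46725664-46729168) had the highest level of the 9, at 1358 and 1080.5 in liver, against 17.8 and 19.3 in kidney, 5.86 and 8.27 in lung, and 1.77 and 0.879 in small intestine. Its tissues did not overlap either, and kidney held 1.52% of the liver mean.

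**Figure D2:**
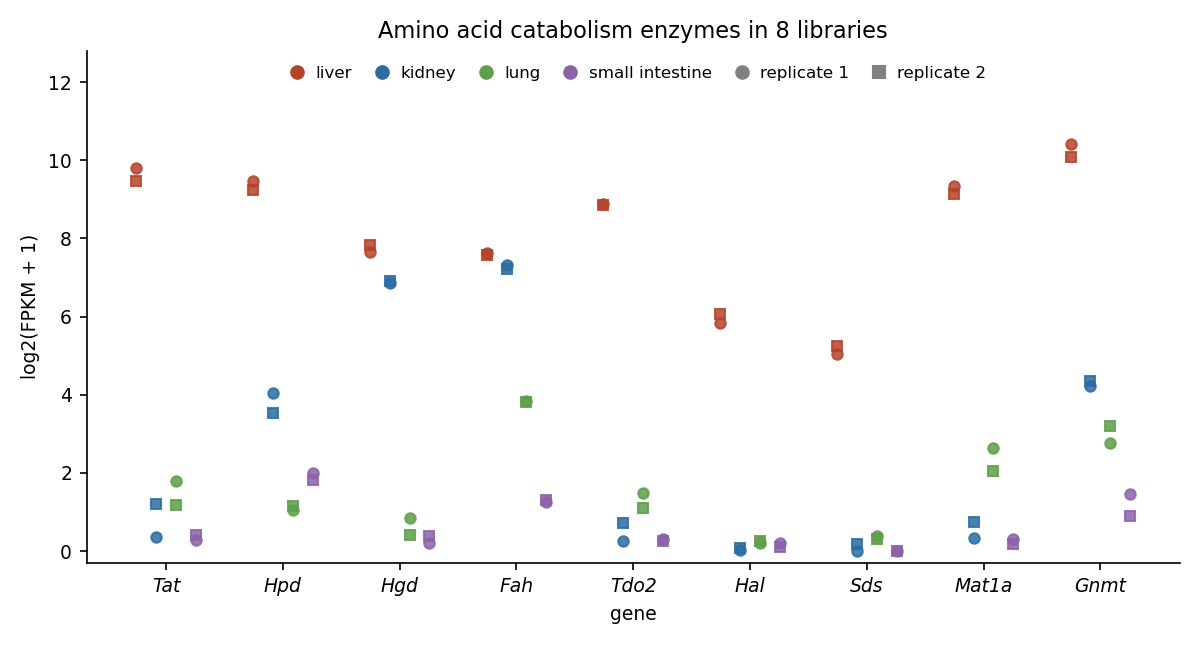
Levels of the 9 enzymes in each of the 8 libraries as log2(FPKM + 1), with circles and squares for replicates 1 and 2. Both liver libraries are highest for every gene, and only Hgd and Fah have kidney libraries close to them.

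All 9 enzymes were higher in liver than elsewhere (the mean over kidney, lung and small intestine), at an adjusted p below 0.05 and a log2 difference above 1 (limma with Benjamini-Hochberg adjustment over 16328 genes), a call made for 6.56% of all genes tested in that direction. Their median log2(FPKM + 1) difference was 7.10, against -0.72 over all genes. The difference was greatest for Tat, at 8.75 (SE 0.26, adjusted p = 1.99e-07), and smallest for Fah, at 3.48 (SE 0.10, adjusted p = 1.9e-07). Tdo2 and Mat1a differed by 8.18 and 8.19, Gnmt by 7.42, Hpd by 7.10, Hal by 5.81 and Hgd by 5.14. With a pseudocount of 0.1 Sds and Hal moved most, Hal to 8.28, so that the order of the 9 depended on it. In the exact two-sided permutation test, 8 of the enzymes gave p = 0.0357, the smallest value that the 28 ways to choose 2 of 8 libraries allow, and Fah gave an exact p = 0.0714. Without either liver library Hal and Sds no longer passed the filter on low values and could not be tested, and the other 7 passed in a fit that assumes the lone liver library to vary like the other tissues.

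Kidney shared 4 of the 9 enzymes with liver. Hgd, Fah, Hpd and Gnmt were higher in kidney than in lung and small intestine on average, a call made for 8.42% of all genes. The log2 differences were 6.42 (SE 0.16) for Hgd, 4.71 (SE 0.11) for Fah, 2.28 (SE 0.18) for Hpd and 2.19 (SE 0.21) for Gnmt, with limma adjusted p-values from 4.45e-07 to 6.32e-05. Of 8 hepatocyte markers 2 passed in the same direction, Ttr at 3.34 and Serpina1c at 1.91, near the values of Hpd and Gnmt. The other 5 enzymes did not pass. Tat differed by -0.13 (adjusted p = 0.698 by limma), Tdo2 by -0.30 and Mat1a by -0.76 (adjusted p = 0.013 by limma, under the size threshold), and Hal and Sds by -0.14 and -0.08. None of the 9 was called lower, against 28.6% of all genes. Tat, Tdo2, Hal and Sds could not be, since their levels in lung and small intestine were too low to pass the size threshold with a pseudocount of 1. Mat1a was called lower with a pseudocount of 0.1, at -1.02, and Hal by limma-voom on recovered reads, at -2.08.

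Against kidney directly, 7 of the 9 enzymes were higher in liver, with log2 differences between 5.06 and 8.84, while 6.9% of all genes were called in that direction. The order among these 7 depended on the pseudocount, since with 0.1 in place of 1 Sds moved from 5.06 to 7.81 and Hal from 5.91 to 8.84, while Hpd moved from 5.57 to 5.67. Hgd differed by 0.85 (95% interval 0.43 to 1.28, adjusted p = 0.00752 by limma), below the size threshold. It passed that threshold under median-of-ratios scaling, at 1.40, and when libraries were rescaled to the same sum, at 1.03. Fah differed by 0.33 (95% interval 0.04 to 0.62, adjusted p = 0.0736 by limma), and by -0.25 when mitochondrial genes were left out before rescaling, so that its order between liver and kidney depended on the scaling.

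**Figure D3:**
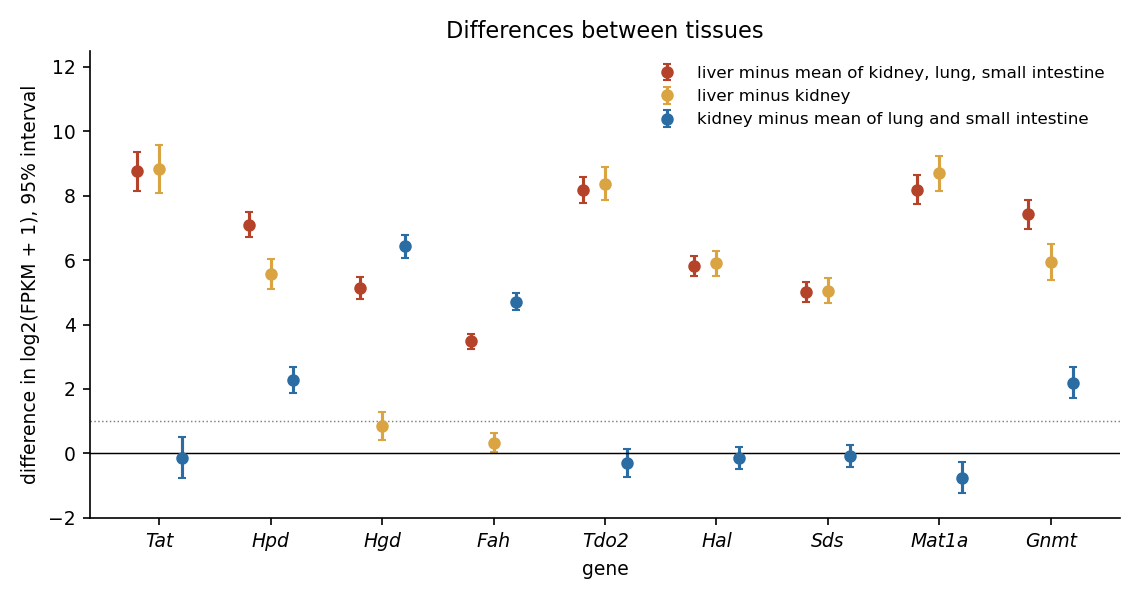
Differences in log2(FPKM + 1) with 95% intervals from limma for each enzyme in 3 comparisons, with the size threshold of 1 dotted. Hgd and Fah are the 2 genes for which liver minus kidney lies under the threshold while kidney minus the mean of lung and small intestine lies far above it.

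Marker transcripts of hepatocytes were measured beside these values in each tissue. Markers of other organs were also read at low levels outside their own tissue. Those of lung epithelium summed to 74.0 and 79.1 in liver, against 60114 and 73902 in lung. The 8 hepatocyte markers summed to 58430 and 52779 in liver and to 96.5 and 180.3 in kidney, and none was at 0. Their median was 0.0610% and 0.182% of liver in the kidney libraries, and Ttr was the highest, at 1.40% and 2.51%. Hgd and Fah lay above every marker in both kidney libraries, and Hpd and Gnmt lay above all but Ttr in the second. In kidney, 7 of the 9 enzymes were higher in the second library, among them Tat, Tdo2, Hal, Sds and Mat1a, and 2 were higher in the first. The hepatocyte marker sum was higher in the second library as well. The lung epithelium markers summed to 28.7 and 67.3 in the kidney libraries, and the enterocyte markers to 35.4 and 31.8. The part of hepatocyte transcripts in the kidney levels of the enzymes was not tested.

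**Figure D4:**
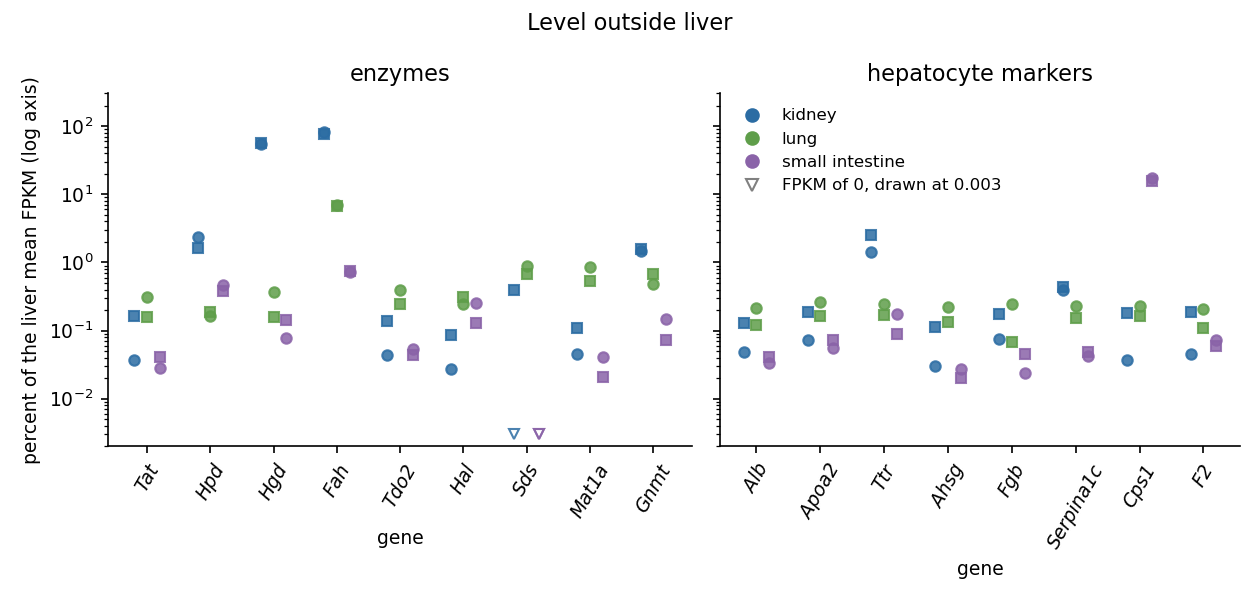
Level of each enzyme and of each hepatocyte marker outside liver, as a percent of the liver mean on a log axis, with circles and squares for replicates 1 and 2 and open triangles for an FPKM of 0. Kidney stands at 55.0% for Hgd and 79.4% for Fah, while 7 of the 8 markers stay under 0.5% there.

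Lung and small intestine were also compared with each other. Mat1a, Fah, Gnmt, Tat and Tdo2 were lower in small intestine, by log2 differences of -2.10, -2.55, -1.81 and -1.14 for the first 4 and just past the size threshold for Tdo2, which is 5 of 9 enzymes against 30.6% of all genes. None was called higher, against 10.1% of all genes, and Hpd differed by 0.82 (adjusted p = 0.00906 by limma) and was called higher, at 1.15, under median-of-ratios scaling. Hal and Sds, at most 0.189 and 0.302 in any library outside liver, could not be called in either direction with a pseudocount of 1. The count of 5 fell to 3, without Tat and Tdo2, when the first lung library or the second small intestine library was left out. It was also 3 under median-of-ratios scaling and quantile normalization, where 15.5% and 16.4% of all genes were called lower. Of the 8 hepatocyte markers, 4 were also called lower in small intestine than in lung and 1 higher. Hepatocyte markers summed to 126 and 74.4 in the lung libraries and to 111 and 102 in those of small intestine, where Cps1, an enzyme that enterocytes also make, was at 17.2% and 15.4% of liver. In lung, 6 of the 9 enzymes were higher in the first library, as was the marker sum, and Gnmt, Hpd and Hal were higher in the second. In each lung library 7 of the 9 enzymes lay above the highest hepatocyte marker, which was at 0.265% and 0.169% of liver. These were not the same 7, since Tat and Hgd were above it only in the first library and Hpd and Hal only in the second. The 7 pancreatic acinar markers summed to 2717 and 1250 in small intestine. Of the 9 enzymes 5 were higher in the same library, among them Gnmt at 1.77 and 0.879, and 3 were higher in the other. The part of either cell type in these values was not tested.

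The wider pathways of amino acid breakdown were described in the same way. Of the other 81 genes listed for these pathways 80 were tested, and 53 were higher and 6 lower in liver than in the other tissues, against 6.56% and 32.7% of all genes. In kidney, 61 were higher and 4 lower than in lung and small intestine, against 8.42% and 28.6% of all genes. Of these genes 43 passed both calls, 10 the liver call alone and 18 the kidney call alone. The 9 enzymes gave 4 for both calls and 5 for the liver call alone. Over all genes tested these shares were 1.81% for both calls, 4.75% for the liver call alone and 6.61% for the kidney call alone. The difference between the lists was not tested. Liver was compared with a mean that includes kidney, while kidney was not compared with liver. A gene similar in both can thus pass the kidney call alone, as Hibch did with kidney at 92.4% of liver. The median kidney level was 85.3% of liver for the wider list. For the 9 enzymes the median was 0.0447% in the first kidney library and 0.395% in the second.

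The genes around each enzyme differed in how far kidney took part. The transcripts of the other 3 histidine enzymes were higher in liver than in kidney, by log2 differences of 3.31 for Uroc1, which follows Hal, 5.48 for Amdhd1 and 4.52 for Ftcd, which ends the chain. The kidney libraries differed in Uroc1, at 5.82 and 1.11, so the size of its difference is uncertain. In the tryptophan pathway Acmsd, which steers the route away from NAD, was 3.28-fold higher in kidney than in liver. Ido1, which carries out the Tdo2 reaction in other tissues, was at 9.78 and 14.3 in small intestine and was listed at 0 in both liver libraries.

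Related enzymes with a common reaction had different tissue patterns. Mat2a, the S-adenosylmethionine synthetase of most other tissues, had means of 56.0 in liver, 108 in kidney, 123 in lung and 25.7 in small intestine, and its regulatory partner Mat2b was lower in liver than in kidney by a log2 difference of -1.35, a call that was lost under median-of-ratios scaling and quantile normalization. Sdsl, a close relative of Sds, was highest in small intestine, with a mean of 15.4 against 7.35 in liver. Bhmt, which remakes methionine from homocysteine, was at 286 in liver and 0.602 in kidney, whereas Bhmt2 was at 66.9 and 47.3.

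Against kidney, 26 of the 80 wider genes were higher in liver and 12 lower, against 6.9% and 16.2% of all genes. The branched-chain amino acid genes gave 0 higher and 6 lower of 18. This became 2 higher and 2 lower under median-of-ratios scaling, and 0 higher and 10 lower without mitochondrial genes. The largest difference in favour of kidney was -5.94 for Dao, which oxidizes D-amino acids. Under all of the 5 scalings run, 17 of the 26 stayed higher and 6 of the 12 stayed lower, and the split became 17 higher and 25 lower without mitochondrial genes, where 5.52% of all genes were higher and 32.0% lower. It became 37 higher and 6 lower under median-of-ratios scaling, where the shares of all genes were 11.6% and 12.1%.

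**Figure D5:**
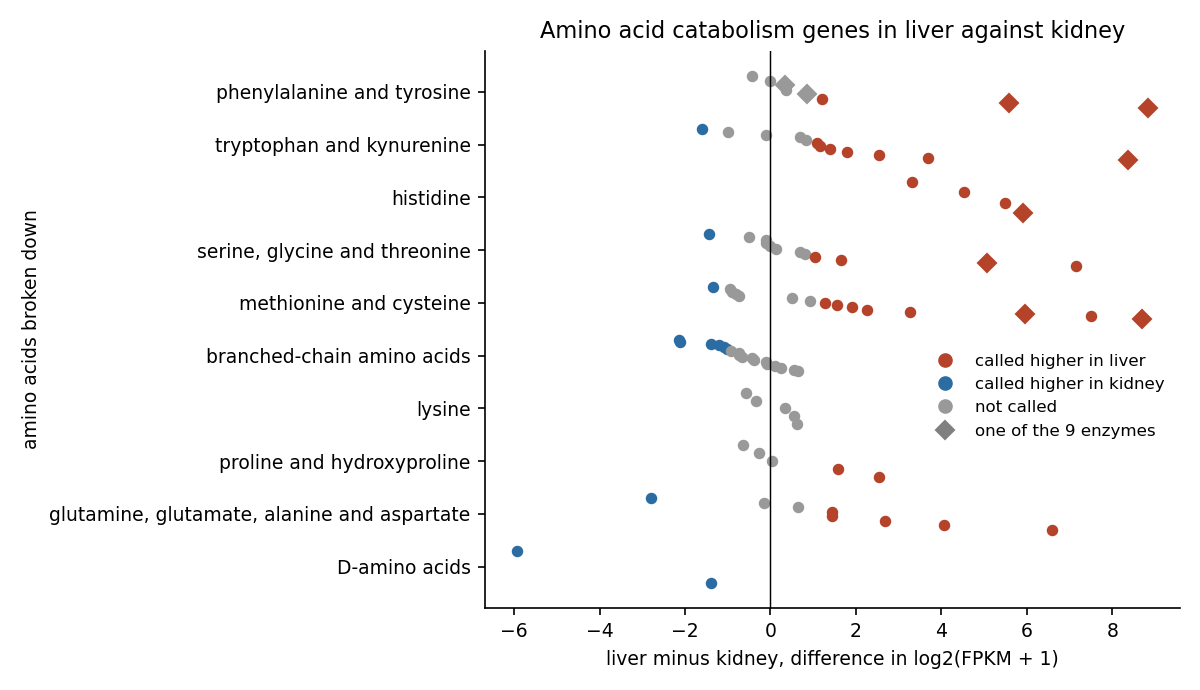
Liver minus kidney difference in log2(FPKM + 1) of each pathway gene tested, grouped by the amino acids broken down, with the 9 enzymes as diamonds. Histidine genes all lie to the liver side and D-amino acid genes to the kidney side.

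The genes nearest to each enzyme over the 8 log2(FPKM + 1) values, by Euclidean distance, included transcripts of plasma proteins and liver transporters. Tat was closest to Mup1, at 0.67, Tdo2 to Plg, at 0.51, Mat1a to Orm1, at 0.55, Hal to Abcb11, at 0.33, and Sds to Slc17a2, at 0.37. Fah was closest to Haao, an enzyme of the kynurenine route, at 1.35, and Hgd to Serpinf2, at 1.15. The nearest genes to Hpd and Gnmt, Agt and Azgp1, were farther away, at 2.39 and 2.32.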

How the data were processed

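Bulk RNA sequencing libraries of 4 mouse tissues, 2 per tissue, were grouped by the tissue in their labels. The authors selected reads by sample index with bbduk, mapped them to the Ensembl release of GRCm38 with STAR 2.5.3a and deposited FPKM values made with the fpkm function of DESeq2. Read counts behind the FPKM values were recovered from exon lengths of GENCODE M21, to which 51844 of 52195 symbols matched (99.3%). The depth was 9399646 to 22132986 reads on genes, and floors of 3 reads cover counting error only, while the 95% intervals are from limma and reflect the spread between libraries.

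Genes with an FPKM of at least 1 in at least 2 libraries (16328) were tested on log2(FPKM + 1) with limma 3.58.1 in R 4.3.3, with a trend and Benjamini-Hochberg adjustment, in a single fit over all 8 libraries. A fold on this scale understates the change of low genes. A gene was called where its adjusted p was under 0.05 and its log2 difference exceeded 1 in size. On simulated data for liver against the other tissues, this rule recovered 89.9% of genes changed 4-fold with 3.41% of calls false (14675 genes). It recovered 21.8% of genes changed 2-fold with 14.3% false (14650 genes). The simulated tissues differed only in the changed genes, which were picked above a read cut-off, and the spread between libraries was set in advance. The rates may therefore not hold for these data, where many genes differ among tissues.

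The enzymes, pathway lists and markers were chosen with earlier results of these data known. Genes named beside the 9 enzymes were, by rule, those with the largest liver difference or the lowest liver minus kidney difference in a pathway, those called lower in liver than in kidney, sets with a common reaction, the 2 nearest genes by distance and the markers. Alternatives changed the pseudocount (to 0.1), filter, scaling, variance model, replicate block and unit, and left out each library. The scaling without mitochondrial genes was added after seeing the data. The 4 tissues were excised from each mouse, but equal replicate numbers are not stated to mark the same mouse, and the replicate differences of tissue pairs correlated at -0.217 to 0.0528, so the numbers were not taken to pair the samples.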

Additional observations from a re-analysis of the deposited data

How the results depend on the processing

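Leaving out 1 library gave 7 to 9 enzymes higher in liver than in the other tissues, 5 to 7 higher in liver than in kidney, 4 in each case higher in kidney, and 3 to 5 lower in small intestine than in lung. The lower liver counts are those without a liver library, where Hal and Sds failed the filter. With the replicate number as a block the counts were 9, 7 and 4, and the block changed no call. The count higher in small intestine than in lung rose from 0 to 1 with a pseudocount of 0.1, median-of-ratios scaling, quantile normalization and limma-voom on recovered reads. The count lower there fell from 5 to 3 under median-of-ratios scaling and quantile normalization. In the wider list, genes higher in liver than in kidney fell from 26 to 17 without mitochondrial genes, and those lower went from 12 to 25 without mitochondrial genes, 6 under median-of-ratios scaling and 7 under quantile normalization. The cause was not tested.

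Signs turned only for small differences that did not pass. Kidney against lung and small intestine became 0.27, 0.15 and 0.39 for Tat (median-of-ratios, without mitochondrial genes, quantile), and 0.29 and 0.02 without the first kidney and the first lung library. Without 1 library Tat ranged from -0.55 to 0.29 and Sds from -0.17 to 0.012, positive for Sds without the first kidney library. The difference became 0.040 and 0.18 for Tdo2 and 0.027 and 0.11 for Sds (median-of-ratios, quantile). Fah in liver against kidney became -0.25 without mitochondrial genes. Small intestine against lung became 0.0090 for Hgd (quantile) and 0.022 and 0.075 for Hal (median-of-ratios, quantile). Sds had 0 to 5 reads in each library outside liver, and it was called lower in small intestine than in lung only with a pseudocount of 0.1, at -1.88, and by limma-voom, at -3.36.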
